A study of Mus musculus with 20 samples.

Results

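The central domain platform of mouse 18S ribosomal RNA is taken here as a run of 269 of the 1840 positions numbered in the deposited table. A base of the region is numbered from 1, at its first position, to 269, and adding 930 gives its number in 18S. The positions were taken by number and not by a measured value, though with earlier results of these data known. The table gives neither bases nor structure, so the domain name rests on the numbering and could not be checked against the values. 18S ribosomal RNA is the RNA of the small ribosomal subunit, and its central domain folds into the platform, the side of the subunit that meets the large subunit and lines the path by which messenger RNA leaves. Dimethyl sulfate (DMS) enters living cells and methylates the pairing edge of adenines and cytosines that are free of base pairs and of bound protein. A reverse transcriptase that reaches such a methyl group either falls off, which is read as a stop, or inserts a wrong base and continues, which is read as a mutation, and enzymes and metal ions are known to differ in which of the outcomes they favour.

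The cells were female mouse embryonic fibroblasts of an F1 strain from 129S1/CastEiJ x 129S1, either untreated or kept in 0.5% DMS for 5 min. The design crosses DMS with 4 kinds of reverse transcription: SSIII at 55 °C, AMV at 42 °C, TGIRT-II at 60 °C and one labelled Zhao, whose meaning the labels do not give. Each kind has 2 lettered samples with DMS and 2 without, making 8 DMS and 8 untreated libraries, and 4 further SSIII libraries without a letter cover untreated and DMS RNA, each copied without and with Mn2+. The question of the series is what stops and mutations each report about DMS-modified RNA.

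The names of the 16 lettered libraries state DMS or untreated but not the reverse transcriptase. The table names a control library for each DMS library, which gives 8 pairs, numbered here 1 to 8. Differences between pairs therefore cannot be assigned to an enzyme, pairs of the same kind are not separate cultures as far as the labels say, and every SD and p-value measures the spread between these libraries, enzyme kinds included. The library names fall into 3 series, of which the first holds pairs 1 to 4, the second pairs 5 and 6, and the third pairs 7 and 8. Stop and mutation fractions were deposited without read numbers, so depth is unknown. In this region the share of stop values at exactly 0 reached 37.9% in the untreated library of pair 3. In that of pair 2 it was 21.6% for stops and 36.8% for mutations. Such shares can come with low depth, so single values in these libraries may rest on few reads.

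DMS raised stops at 20 of the 269 positions and lowered them at 6 (limma on log2 of the percent plus 0.1, with the pair as a block, Benjamini-Hochberg adjusted p under 0.05 over all 18S positions). The 20 are 7.43% of the region, against 8.33% of the 1776 positions tested in the whole RNA, and the 6 are 2.23% against 1.63%. The region was thus close to the whole RNA in how often stops changed. Its rises were led by a small set of strong sites. At 5 positions stops rose by at least 5 percentage points, and these carried 66.7% of the summed mean rises of the region. They are bases 72, 98, 189, 244 and 267 of the region (the first 3 are 1002, 1028 and 1119 in 18S). The other 15 called positions rose less, 10 of them by under 1 point. The 5 other segments into which the RNA was divided, of 217 to 360 tested positions, each had 0 to 3 positions with a rise of at least 5 points. With a rise of at least 1 point the region had 10 positions and each other segment 10 to 13. The 66.7% was not compared with other segments.

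**Figure D1:**
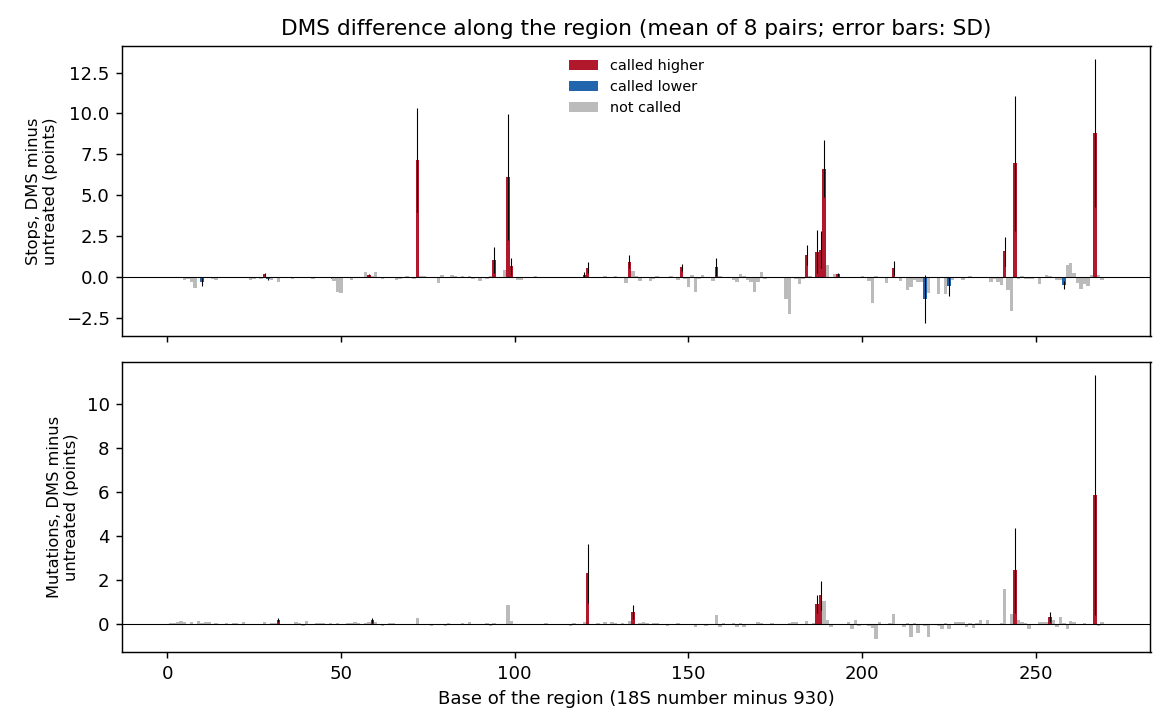
Mean DMS minus untreated difference in percentage points over the 8 pairs at each of the 269 positions, for stops (upper panel) and mutations (lower panel), with the SD over pairs drawn at called positions. In stops 5 positions stand at or above 5 points, and in mutations only base 267 does.

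Base 267 had the largest rise in stops of the region. Its untreated stop percentages in pairs 1 to 8 were 0.320, 0.202, 0.952, 0.270, 2.28, 0.689, 0.485 and 0.273, and with DMS they were 14.8, 15.6, 9.80, 10.3, 5.10, 4.54, 9.41 and 6.32. All 8 DMS values lay above all 8 untreated ones, with the highest in pairs 1 and 2 and the lowest in pairs 5 and 6. The mean rise was 8.78 ± 4.54 points (SD, n = 8 pairs), or 3.84 on the log2 scale (SE 0.47, limma adjusted p = 0.00124), the fifth highest mean rise of the 18S positions.

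Base 72 was the most sharply separated. Untreated stops there were 0.320, 0.589, 0.379, 0.268, 0.658, 0.696, 0.267 and 0.293% in pairs 1 to 8, and DMS stops were 12.6, 12.3, 6.90, 6.98, 5.17, 4.16, 6.27 and 6.34%. The groups did not overlap, and pairs 1 and 2 were again the highest with DMS. The rise was 7.16 ± 3.18 points, or 3.82 on the log2 scale (SE 0.27, limma adjusted p = 0.000155), the smallest adjusted p among the 5 strong sites.

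At base 244 stops rose by 6.95 ± 4.12 points (log2 change 3.48, SE 0.59, limma adjusted p = 0.00683). The untreated values were 0.587, 0.771, 0, 0.154, 3.44, 1.39, 0.572 and 0.529%, and the DMS values 12.6, 13.2, 8.08, 9.59, 5.16, 5.09, 5.53 and 3.74%. The groups did not overlap, but the gap was narrow, since the highest untreated value, of pair 5, was close to the lowest DMS value, of pair 8. The base just before it in the numbering, 243, was itself a site of stops in untreated RNA and went the other way, with untreated values of 1.60, 1.81, 1.10, 1.54, 12.0, 7.45, 2.22 and 2.02%. Stops at base 243 were lower with DMS in 8 of 8 pairs, by 2.08 ± 3.26 points in the mean, and did not pass the test (limma adjusted p = 0.0799).

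Base 189 differed from the other strong sites in its high level without DMS. Untreated stops were 1.42, 1.30, 4.00, 2.64, 4.57, 3.42, 1.99 and 3.06%, and DMS brought every pair to a similar level of 9.72, 11.2, 9.54, 7.52, 9.58, 10.0, 7.82 and 9.93%. The groups did not overlap, and the spread between pairs was the smallest of the 5 sites in points, with a rise of 6.62 ± 1.74 (log2 change 1.82, SE 0.23, limma adjusted p = 0.00159).

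Base 98 ordered the pairs in another way. Its untreated stops were 0.214, 0.0362, 0.553, 0.343, 0.441, 0.777, 0.516 and 0.481%, and its DMS stops 7.41, 6.88, 4.04, 3.60, 3.66, 2.54, 13.2 and 10.8%. Here pairs 7 and 8 were the highest with DMS, whereas at bases 72, 244 and 267 pairs 1 and 2 were. The rise was 6.10 ± 3.88 points (log2 change 3.63, SE 0.42, limma adjusted p = 0.000892), with no overlap between the groups.

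**Figure D2:**
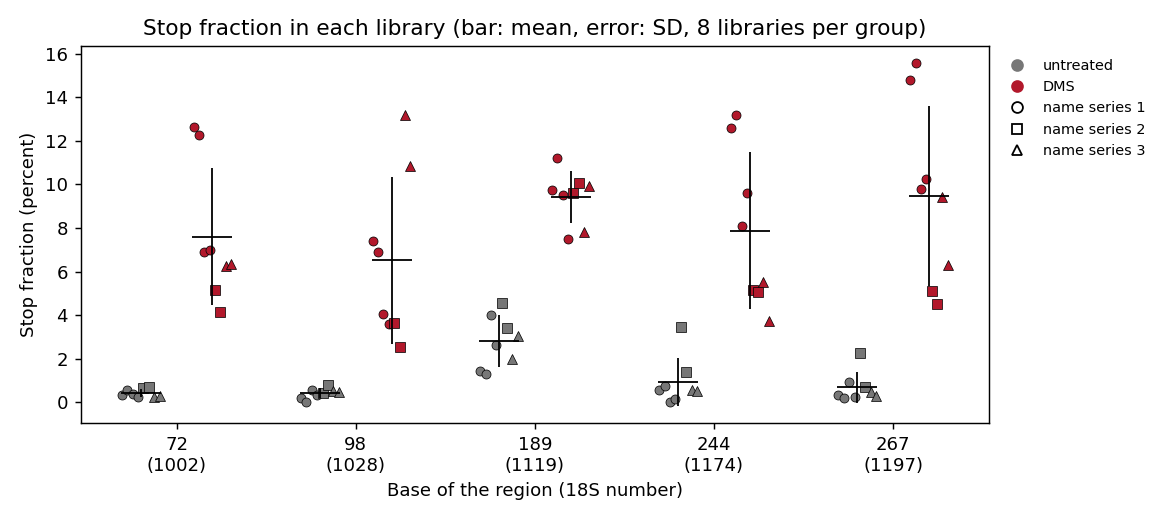
Stop fraction in percent at the 5 positions with a mean rise of at least 5 points, for the 8 untreated (grey) and 8 DMS (red) libraries, with the mean and SD of each group; point shapes mark the 3 series of library names. At each position all DMS points lie above all untreated points, and the order of the DMS points differs between positions.

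The next base, base 99 (1029 in 18S), rose in 8 of 8 pairs at a lower level, from a range of 0.0674 to 0.225% untreated (median 0.124%) to 0.413 to 1.86% with DMS (median 0.529%). Its rise was 0.644 ± 0.511 points (limma adjusted p = 0.000575), again highest in pairs 7 and 8. With base 94 (1024), which was higher in 7 of 8 pairs and rose by 1.01 ± 0.793 points (limma adjusted p = 0.0183), these made 3 called positions within 6 nt. The call at base 94 was lost in 3 of the 8 fits that leave out a pair.

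A group of called positions lay just before and around base 189. Of the consecutive 30-nt windows counted from the start of the region, the one from base 181 to 210 held 6 of the 20 positions with higher stops, the most of any. Base 184 (1114) rose by 1.32 ± 0.60 points (limma adjusted p = 0.00718), from at most 0.529% untreated to between 0.944 and 2.42% with DMS. Base 187 (1117) rose by 1.55 ± 1.33 points (limma adjusted p = 0.0145), from at most 0.460% to between 0.724 and 4.45%. Base 188 (1118) rose by 1.66 ± 1.11 points (limma adjusted p = 0.0144), from at most 0.639% to between 0.730 and 3.42%. At each of the 3 positions the groups did not overlap and 8 of 8 pairs rose, and the highest DMS value was in pair 3 or 4 and the lowest in pair 5, 7 or 8. The remaining called positions of the window, bases 193 and 209, rose by under 1 point.

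Away from these groups, stops rose at base 241 (1171) by 1.56 ± 0.875 points (limma adjusted p = 0.0144), at base 133 (1063) by 0.921 ± 0.388 points (adjusted p = 0.00293) and at base 158 (1088) by 0.608 ± 0.566 points (adjusted p = 0.0467). The first 2 had no overlap between the groups; at base 158 the DMS values, from 0.153 to 1.65%, overlapped untreated values of up to 0.260%. At bases 133 and 158 the untreated libraries of pairs 2, 3 and 4 were at 0, so the size of the log2 change there depends on the added 0.1. Of the 20 positions, 16 were higher in all 8 pairs and 13 had no overlap between the groups, which the test favours. Called or not, 6.32% of the region's positions were higher in all 8 pairs and 4.83% had no overlap, against 6.76% and 3.21% of all 18S positions. The calls at bases 58, 120, 158 and 209, which rose by under 1 point, were each lost in 6 or 7 of the 8 fits that leave out a pair.

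Whether the positions with higher stops were evenly placed was not tested. Before base 72 there were 2, both rising by under 1 point, and from base 210 to 240, a stretch of 31 nt, none. Over the window from base 211 to 240 the mean stop percentage was lower with DMS in 8 of 8 pairs, by 0.329 ± 0.340 points, and 2 of the 6 positions with lower stops, bases 218 and 225, lay in it. Windows were described and not tested.

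At base 218 (1148) untreated stops ranged from 0.768 to 7.25% (median 1.82%) and DMS stops from 0.746 to 3.43% (median 1.10%). They fell in 8 of 8 pairs, by 1.35 ± 1.47 points (log2 change -0.72, SE 0.15, limma adjusted p = 0.0182), with much overlap, since the pairs differed more from each other than DMS from untreated. Pairs 3 and 4 had the highest values in both groups. The other 5, bases 225, 258, 10, 29 and 47, were lower in 8 of 8 pairs at each, with mean differences of -0.578, -0.497, -0.308, -0.114 and -0.0644 points and limma adjusted p-values of 0.0361, 0.0272, 0.0389, 0.0380 and 0.0143 in that order. None of the 6 had groups without overlap, as 0.0563% of all 18S positions did in this direction, and none of the 6 passed when the pairing was left out of the fit (18 positions called, all higher). With a pair left out, the calls at bases 10, 29, 225 and 258 were each lost in 6 or 7 of the 8 fits.

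Mutations rose at fewer positions. DMS raised the mutation fraction at 9 positions, 3.35% of the region against 4.67% of the 1840 tested in the whole RNA, and lowered it at 0. At an unadjusted exact sign-flip p under 0.05 there were 39 positions of the region in either direction, or 14.5%, against 16.2% of all 18S positions. Called or not, 4.09% of the region's positions were higher in all 8 pairs, against 5.82% of all 18S positions, and 0.743%, bases 59 and 134, had no overlap between the groups, against 1.09%. The longest stretch without raised mutations ran from base 60 to 120, 61 nt that hold the strong stop sites at bases 72 and 98.

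The largest rise in mutations was again at base 267, and it divided the pairs. Mutation percentages with DMS were 0.284, 0.301, 1.04, 1.87, 10.5, 13, 11.4 and 9.99 in pairs 1 to 8, and untreated ones were 0.0966, 0, 0, 0, 0.629, 0.490, 0.247 and 0.0423. All pairs rose, but pairs 1 to 4 by under 2 points and pairs 5 to 8 by about 10 or more, and the DMS values of pairs 1 and 2 lay below the untreated values of pairs 5 and 6. The mean rise of 5.85 ± 5.44 points (log2 change 3.79, SE 0.53, limma adjusted p = 0.00725) therefore describes no single pair.

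At base 244, too, pairs 1 to 4 were lower with DMS than pairs 5 to 8. Its DMS mutation percentages were 0.553, 0.751, 2.11, 1.35, 4.48, 5.22, 4.31 and 4.44, against 0.472, 0.847, 0, 0.375, 0.563, 0.520, 0.420 and 0.558 untreated. Pairs 1 and 2 hardly differed between DMS and untreated, and pairs 5 to 8 rose the most. The rise was 2.43 ± 1.92 points in the mean and was seen in 7 of 8 pairs (limma adjusted p = 0.0390). This call was lost in 6 of the 8 fits that leave out a pair, while that at base 267 was kept in all 8 but did not pass with limma on the percent itself (adjusted p = 0.142).

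Base 121 (1051) had the largest mutation rise among the positions where it exceeded the stop rise. Its mutation percentages with DMS were 2.80, 2.69, 0.321, 0.334, 3.28, 3.82, 3.35 and 3.50, and untreated they were 0.164, 0.126, 0.104, 0.132, 0.634, 0.340, 0.0730 and 0.0768. Pairs 3 and 4 stood apart as low, and the other 6 pairs had similar values with DMS. The rise was 2.31 ± 1.34 points (limma adjusted p = 0.00950). Stops at base 121 rose too, in 8 of 8 pairs and without overlap, but by 0.552 ± 0.343 points (limma adjusted p = 0.000516).

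Bases 187 and 188 rose in mutations as in stops. At base 188 the mutation percentages with DMS were 2.22, 2.38, 0.712, 0.764, 2.04, 2.01, 2.01 and 2.05, against an untreated range of 0.214 to 0.730%. The rise was 1.30 ± 0.658 points (limma adjusted p = 0.0121), and the only pairs near the untreated range were 3 and 4. At base 187 the rise was 0.915 ± 0.417 points (limma adjusted p = 0.00365), also lowest in pairs 3 and 4. Smaller rises of 0.548, 0.325, 0.171 and 0.170 points were called at bases 134, 254, 59 and 32 (limma adjusted p = 0.00758, 0.0147, 0.0390 and 0.0227), and at none of these 4 were stops called higher. With a pair left out, the call at base 59 was lost in 7 of the 8 fits and that at base 32 in 5.

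Stops and mutations overlapped in 5 positions, bases 121, 187, 188, 244 and 267. These are 25.0% of the stop list and 55.6% of the mutation list, and over the whole RNA the shares are 29.1% of 148 and 50.6% of the 85 positions with raised mutations that also had stop values. Among the strong stop sites, bases 72, 98 and 189 were not called in mutations. Their mean mutation rises were 0.291 points (6 of 8 pairs higher, limma adjusted p = 0.231), 0.887 points (7 of 8, adjusted p = 0.110) and 1.06 points (8 of 8, adjusted p = 0.141). At base 189 pairs 1 to 4 had DMS mutation percentages of 0.543 to 0.657 and pairs 5 to 8 of 2.33 to 2.63, against untreated values of 0.227 to 0.651 over all 8.

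For each pair the mutation rise was divided by the sum of the stop and mutation rises, with a fall counted as 0. The sources used here do not give the denominators, so this mutation part only describes the deposited fractions and counts no reads. At base 267 it was 1.28, 1.92, 10.5, 15.8, 77.8, 76.5, 55.5 and 62.2% in pairs 1 to 8, so that 1 position read almost wholly as a stop in some libraries and mainly as a mutation in others. At base 244 it ranged from 0 to 20.7% in pairs 1 to 4 and from 43.9 to 69.5% in pairs 5 to 8, and at base 189 it was at most 1.95% in the former and at least 23.7% in the latter.

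Not all positions followed that division. At base 72 the mutation part stayed low in 7 of the 8 pairs, with a mean of 5.57% and a highest value of 26.1% in pair 6. At base 98 it was 40.4 and 58.9% in pairs 5 and 6 but 8.23 and 9.21% in pairs 7 and 8, which had the strongest stops there. At base 121 it was above 70% in all pairs other than 3 and 4, where it was 32.8 and 31.4%. Pairs 1 and 2, which had the lowest mutation parts at bases 267, 244 and 189, therefore had a high one at base 121, and the balance of stops and mutations varied with the position as well as with the library. None of these differences between positions or pairs was tested, and the part played by the reverse transcriptase cannot be told apart from other differences between libraries, since the names do not give it.

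**Figure D3:**
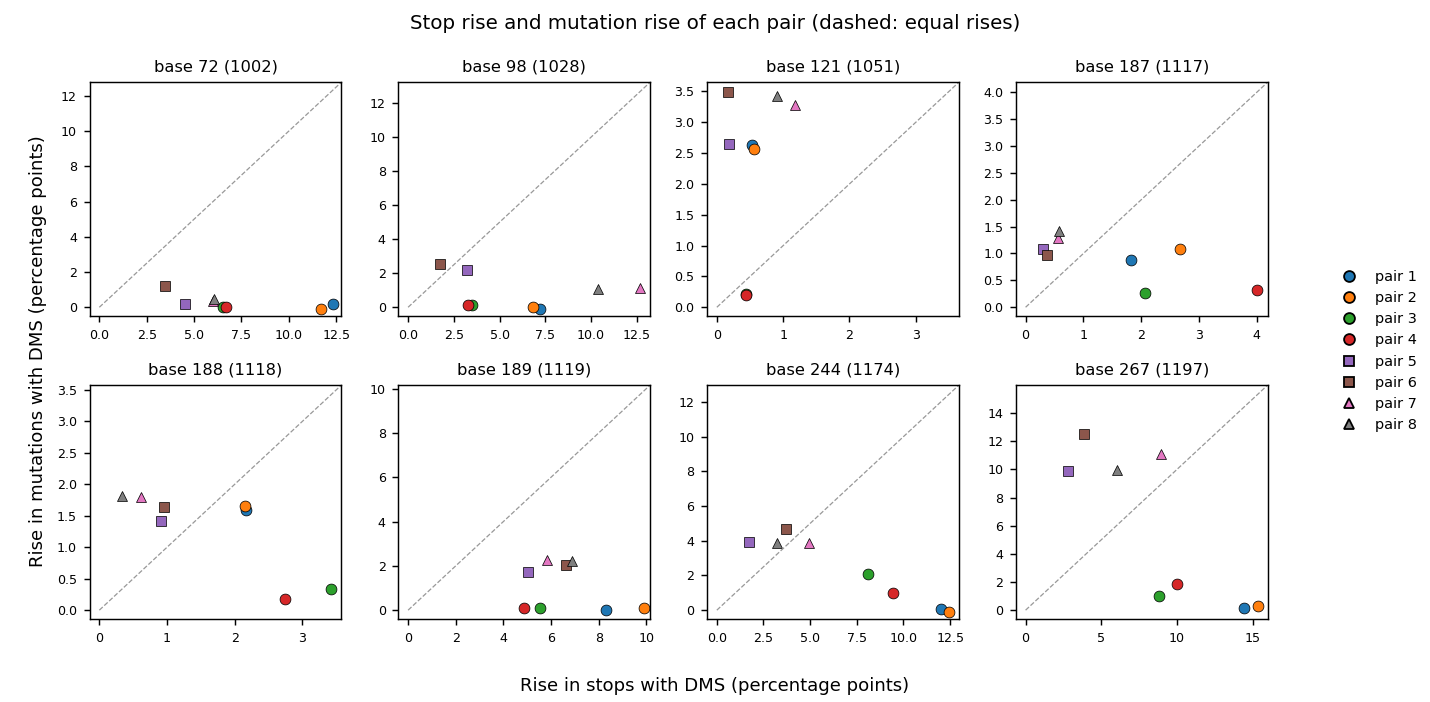
Rise in stops (horizontal) and rise in mutations (vertical) with DMS, in percentage points, for each of the 8 pairs at 8 positions; the dashed line marks equal rises. At bases 244 and 267 pairs 1 to 4 lie near the horizontal axis and pairs 5 to 8 higher, while at base 121 most pairs lie well above the line.

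Across the 269 positions the mean rises in stops and in mutations had a Pearson correlation of 0.705, or 0.579 without base 267, and a Spearman correlation of 0.222. The points share their libraries, and the difference between the first 2 values shows the weight of 1 position. Moving the mutation values by 1 or 2 nt in either direction gave between -0.0347 and 0.0967. Between pairs, the profiles of stop differences over the 269 positions correlated at 0.376 to 0.961, and those of mutation differences at -0.0609 to 0.972.

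The region's mean difference in percentage points did not pass the exact test in either readout. The mean stop difference was 0.0464 ± 0.181 points, above 0 in 5 of 8 pairs (exact two-sided sign-flip test over 8 pairs, p = 0.484, where the smallest possible p is 0.0078). By name series it was 0.0849, -0.0923 and 0.108 points. The mean difference was below 0 at 191 of the 269 positions, with a median of -0.0433, so the rise of the few strong sites stood against slightly lower values at most others. Without the 10 most changed positions it was -0.0785 points. The mean mutation difference was 0.0732 ± 0.109 points, above 0 in 5 of 8 pairs (exact p = 0.0859), and by name series it was -0.00812, 0.204 and 0.105 points. As a mean log2 ratio, the scale of the position tests, the mutation difference was 0.152 and passed (exact p = 0.0156).

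Set against the other 18S positions, the region's mean DMS difference in points did not pass the test, while other summaries did. The region minus the rest was -0.0285 ± 0.0681 points for stops (above 0 in 4 of 8 pairs, exact sign-flip p = 0.289) and -0.0134 ± 0.0881 for mutations (2 of 8, exact p = 0.648). For stops the region lay below the rest as a median over positions (-0.0247 points, exact p = 0.0078) and as a mean log2 ratio (-0.142, exact p = 0.0234). For mutations it lay above when each difference was divided by 1 minus the untreated fraction (0.0876, exact p = 0.0234). That division hardly moved the region's own mean, from 0.0732 to 0.0734, so the shift lay in the values of the other positions. By name series the differences in points were -0.0463, -0.0458 and 0.0243 for stops and -0.0657, 0.0972 and -0.0196 for mutations. The strongest positions lay elsewhere in the RNA: in stops at 18S position 569, with a mean rise of 20.0 points, and in mutations at 18S position 1471, with 15.2. Yet the region had 5 positions with a stop rise of at least 5 points, where the 5 other segments into which the RNA was divided had from 0 to 3. With a rise of at least 1 point it had 10 and they had from 10 to 13.

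The untreated stop level of the region did not differ from the rest by the test as a mean, but did as a median. Over its 269 positions it averaged 0.625 ± 0.232% (SD over 8 libraries), which was 0.0196 ± 0.0503 points above the other positions (5 of 8 libraries, exact sign-flip p = 0.344). As a median over positions it was 0.105 points above (exact p = 0.0234). Untreated mutations averaged 0.345 ± 0.171% and lay 0.0529 ± 0.0566 points below the other positions, in 7 of 8 libraries (exact p = 0.0391). That difference turned to 0.0137 points above (exact p = 0.516) when the last 281 positions of the RNA were left out, and that last segment had an untreated mutation mean of 0.704%.

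Single sites of the untreated signal differed widely between libraries. The 5 highest mean stop levels were at bases 179 (1109), 8 (938), 203 (1133), 243 and 50 (980). At base 179 the 8 untreated libraries had 1.26, 0.714, 13.6, 28.9, 0.921, 0.204, 0.103 and 0.233%, so 2 libraries, of pairs 3 and 4, made the mean. In the untreated library of pair 3, 37.9% of the region's stop values were 0, so its single values may rest on few reads. At bases 8, 203 and 50 the same 2 libraries were the highest, with 11.2 and 11%, 8.93 and 13.7%, and 9.70 and 10.1%, where the other 6 had at most 2.78%. Base 243 was highest in pairs 5 and 6 instead. The DMS libraries of pairs 3 and 4 shared the high stops, with 14.5 and 10.3% at base 179 and 8.90 and 9.66% at base 8, and at none of the 5 positions was the DMS difference called.

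**Figure D4:**
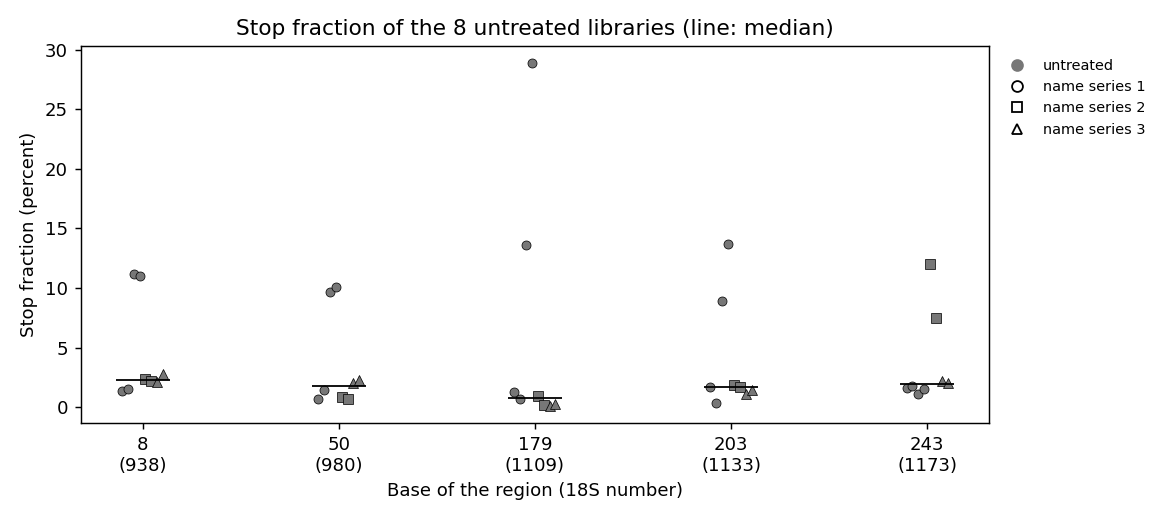
Stop fraction in percent of the 8 untreated libraries at the 5 positions with the highest untreated means; the line is the median and the point shapes mark the series of library names. At bases 8, 50, 179 and 203 the 2 highest points are the libraries of pairs 3 and 4, and at base 243 those of pairs 5 and 6.

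The highest untreated mutation levels were at bases 241, 159, 243, 158 and 155. At base 241 they ranged from 0 to 7.18% (median 2.25%), highest in pairs 5 and 6, and at base 158 from 0.811 to 6.27% (median 1.12%), highest in the same 2 pairs. At bases 159 and 155 all 8 libraries had between 1.29 and 3.36%. None of the 5 was called for DMS in mutations. At base 241 the mean difference of 1.60 ± 2.00 points was above 0 in 7 of 8 pairs and did not pass (limma adjusted p = 0.296), although stops at base 241 did.

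The 4 SSIII libraries without a letter, 1 per condition, gave the same positions a second look with no test. Without Mn2+, stops were above the untreated value at 18 of the 20 positions called higher, where 25.7% of the region's positions were, and with Mn2+ at 16 of 20, where 50.2% were. Of the 6 positions called lower, 6 were below 0 without Mn2+ and 3 with it. Without Mn2+ most of the region's positions were below 0 too, with a median stop difference of -0.147 points. With Mn2+ the region's median was 0.00369 points. Of the 9 positions with raised mutations, 8 were above 0 in each metal state, where 44.2% and 50.9% of the region's positions were. Values of exactly 0 made up as much as 18.6% of the region's stop values in these libraries, in DMS with Mn2+.

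At bases 267 and 244 the stop rise was smaller and the mutation rise larger with Mn2+ than without. At base 267 stops went from 1.58 to 27.9% without Mn2+ and from 1.27 to 10.2% with it, and mutations from 1.88 to 3.04% and from 0.872 to 14.8%. At base 244 stops went from 1.38 to 19.3% and from 1.55 to 3.55%, and mutations from 4.57 to 6.30% and from 2.24 to 11.8%. Bases 72, 98 and 189 are the strong stop sites that were not called in mutations in the lettered libraries. Stops at base 72 went from 0.682 to 15.5% without Mn2+ and from 3.13 to 6.19% with it. Mutations at base 72 went from 0.551 to 1.85% and from 0.669 to 3.21%. Stops at base 98 went from 1.12 to 14% without and from 1.91 to 7.41% with Mn2+, and mutations at base 98 stayed between 0.346 and 0.53% in all 4 libraries. At base 189 stops went from 1.5 to 11.8% and from 1.04 to 2.59%, and mutations from 0.566 to 0.821% and from 0.473 to 0.824%. At these 3 positions the stop rise was smaller with Mn2+, and at bases 98 and 189 the mutations with DMS hardly differed between the metal states. At base 121 the mutation rise was alike in both metal states, from 0.467 to 5.39% without and from 0.621 to 5.45% with Mn2+, while stops went from 0.228 to 2.70% and from 0.405 to 0.770%.

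**Figure D5:**
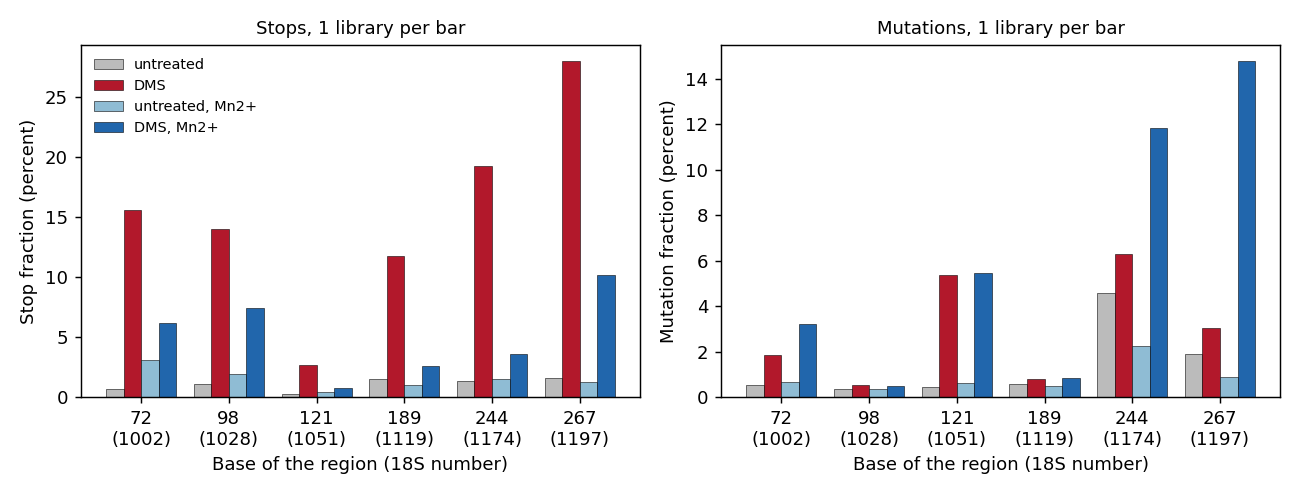
Stop fraction (left) and mutation fraction (right) in percent at 6 positions in the 4 SSIII libraries without a letter, 1 library per bar and no replicate. At bases 244 and 267 the DMS library with Mn2+ has the highest mutation bar and a lower stop bar than the DMS library without it; at bases 98 and 189 the mutation bars stay low in all 4.

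Base 190 (1120), next to base 189, was one of the 5 largest stop differences with Mn2+, from 1.37 to 4.13%, and went from 1.19 to 6.86% without it. In the lettered libraries it was higher in 7 of 8 pairs, from a median of 0.381% untreated to 0.970% with DMS, and did not pass the test (limma adjusted p = 0.133). Base 158, among the called sites of small rise, went from 0.930 to 4.55% with Mn2+ and from 0.311 to 0.659% without. Base 133 was a contrary case: called in the lettered libraries, it was at 0 in both DMS libraries without a letter, where the untreated ones had 0.544 and 0.549%.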

How the data were processed

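Per the labels, RNA of mouse fibroblasts with or without DMS was reverse transcribed and sequenced. The submitters' processing notes name cutadapt and Bowtie2, with versions and settings not given in the sources used here. In 1 deposited table the authors gave, for each library and 18S position, the fraction of reads that stop and the fraction that carry a mutation, without read counts or bases. Neither the denominators nor any offset applied to stop positions is stated there. The region is 18S positions 931 to 1199; its members and the lists were chosen with earlier results of these data known. Fractions were turned into percent (pandas 2.3.3, NumPy 2.4.6, Python 3.11.15).

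Each DMS library was paired with the control library that the table names for it, and the pairing was checked: deviations of paired libraries from their group means correlated at 0.233 to 0.693 for stops and 0.140 to 0.667 for mutations, and 6 and 4 of the 8 untreated libraries, respectively, correlated best with their own DMS library. Lettered library names show DMS or untreated but match no single sample, so they were used as members of those groups. Position tests used limma 3.58.1 (R 4.3.3) with a mean-dependent prior on log2(percent + 0.1), the pair as a block and Benjamini-Hochberg adjustment over the 1776 positions with stop values in all 16 libraries and the 1840 with mutation values. Log2 changes on this scale understate the change of low positions. Region means used exact two-sided sign-flip tests over 8 pairs (SciPy 1.17.1). The limma test was tried on simulated data with 5000 reads at every position and the same 2-fold or 4-fold change in all pairs. Of its calls, 5.9 to 7.1% were false for stops and 3.4 to 3.9% for mutations. It recovered 72.5 to 99% of the changed positions. The depth of the real libraries is unknown and their DMS effects differed between pairs, so these rates may not hold for them.

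Positions named are, per readout, up to 12 called with the largest rise in every pair, the 5 called with the largest fall, the 5 highest in untreated RNA, the 5 with the largest difference in each metal state and between metal states, 18S positions 1173, 1174 and 1197, and neighbours of these within a run. Alternatives were other pseudocounts, no block, a filter on low means, other summaries, positions up to 1559 only and each pair left out. A comparison of bases needs the 18S sequence, which was not used here. The 9 Xist libraries were not used.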

Additional observations from a re-analysis of the deposited data

Results flagged for a closer look

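Of the 26 positions with called stops, 5 had opposite signs in the SSIII libraries without and with Mn2+, with 1 library per condition, and the difference between metal states was not tested. Opposite signs were found at 44.2% of the region's 269 positions. At base 10 the DMS minus untreated difference was -0.446 points without and 0.260 with Mn2+, and at base 28 it was 0.394 and -0.105 points. At base 47 it was -0.0767 and 0.149 points, at base 193 it was 0.104 and -0.667 points, and at base 225 it was -0.662 and 0.369 points. In the lettered libraries bases 28 and 193 were higher and bases 10, 47 and 225 lower with DMS, as they were without Mn2+.

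Among untreated stops the highest library met Dixon's criterion at 3 positions. At base 179 it was pair 4 with 28.9%, where pair 3 was also high with 13.6%. At bases 244 and 267 it was pair 5, with 3.44 and 2.28%. These 3 positions were the only ones among the 90 groups of untreated or DMS levels checked at called positions and at the highest untreated ones, and 0 of the 41 groups of DMS differences met the criterion, where chance gives about 1 in 20.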

How the results depend on the processing

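Fractions without read numbers, 37.9% zeros in 1 library and unknown enzymes limit every value here. The number of positions with called stops was 26 and fell to 15 with limma on the percent itself, and leaving out a pair gave 17 (without pair 7) to 24. Called mutations numbered 9, but 5 with a pseudocount of 0.01, and 5 (without pair 8) to 8 with a pair left out. The exact test per position called 0 in both readouts, since its smallest adjusted p-values were 0.0846 and 0.125; unadjusted, 27.9% and 14.5% of the region had p under 0.05, against 21.6% and 16.2% of all 18S positions. Without the replicate block, that is without the pairing, 18 stop and 9 mutation positions were called. At every setting other than the exact test 9 of the 26 stop and 4 of the 9 mutation positions were called.

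The mean stop difference changed sign as a median over positions (-0.0224 points) and without the 10 most changed positions (-0.0785). Its difference from the rest of the RNA passed the exact sign-flip test as a median (-0.0247) and as a log2 ratio (-0.142), and changed sign when each difference was divided by 1 minus the untreated fraction (0.00337). Leaving those 10 positions out of the region alone takes away its strong rises and not those of the rest, and gave -0.153 points for stops and -0.0689 for mutations; leaving out the same share of both, an alternative chosen after seeing the data, gave -0.0695 (passing) and -0.00857 (not passing). The untreated stop level minus the rest was 0.105 points as a median, which passed. The mean mutation difference passed as a log2 ratio (0.152). Its difference from the rest changed sign as a median (0.00460), when so divided (0.0876, which passed), without pairs 2 and 3, an alternative chosen after seeing the data (0.0114), and without pair 2 (0.00369), the range over pairs left out being -0.0392 to 0.00369. The untreated mutation level minus the rest changed sign as a median (0.00925) and without the last 281 positions (0.0137), and ranged from -0.0663 to -0.0392 with a pair left out, not passing without pair 4, 5, 6, 7 or 8. In all, 83 of 110 alternative values were rated the same as the main one. For means this was keeping their direction and side of the threshold. For counts of called positions it was only staying near the main count, so that 18 called stop positions against 26 were rated the same. The cause was not tested for the others.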
